A study of Mus musculus with 12 samples.

Results

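The change from day 5 to day 10 was examined in Cherry+ cells of the metastatic lung, the cells that carried the niche label. The comparison takes 6 of the 12 libraries of the series, chosen by their titles: 3 of day 10 Cherry+ cells against 3 of day 5 Cherry+ cells. Female Balb/c mice, aged 6-10 weeks, had received 4T1 labelling cells by vein, and lungs were taken 5 or 10 days later. 4T1 is a mammary carcinoma line of the same mouse strain that seeds the lung. In both groups the sorted cells lacked CD45, which marks leukocytes, and Ter119, which marks red blood cells, and RNA was amplified before library preparation. The other 6 libraries are Cherry- cells from the same gate at the same days, 3 at each. No label says whether a library came from 1 animal or from several, so p-values measure the spread between libraries, which may be technical in part. Nor do the labels say whether tumour cells, which make the label, were removed from the Cherry+ gate.

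As background, niche-labelling tumour lines secrete a cell-penetrating form of mCherry that is taken up by the cells around them. Uptake marks host cells that lie close to the tumour cells, and cells deeper in the lung stay unlabelled. With CD45+ cells removed, the host part of such a sort is made of lung epithelium, endothelium, fibroblasts and other stromal cells. Between the earlier and the later day, seeded tumour cells grow from small clusters into larger nodules, and the set of cells within reach of the label can change with them. The day comparison asks how the labelled cells differ between these stages of the disease.

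The deposited values are log2 levels. Of 25194 genes with a value other than 0, 15842 passed a minimum of 10 on the linear scale (3.32 on the log2 scale) in at least 3 of the 12 libraries, and these were tested. The identifiers are those of the UCSC known-gene series, and 0 of them could be paired with a gene name in the tables used here. The genes are therefore described by level, by direction and by their behaviour in labelled and unlabelled cells, and the cell type of the libraries could not be checked against marker genes. In bulk RNA, fewer cells of a type and less RNA per cell cannot be told apart. The read depth of the libraries is unknown.

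Labelled libraries of the same day differed from each other nearly as much as libraries of different days. The root mean square difference between a pair of libraries, taken over the genes tested, averaged 0.685 log2 units over the 9 pairs that cross the days. It averaged 0.543 within day 5 and 0.646 within day 10, over 3 pairs each. The closest pair was day 5 replicates 1 and 2, at 0.36. The most distant pair was day 5 replicate 3 and day 10 replicate 3, at 1.066. Those libraries also held the ends of the first principal component of the 6 libraries, at -64.4 and 68.9, with 54.3% of the variance. The other day 5 libraries scored -9.3 and -4.9 on it, and the other day 10 libraries -12.4 and 22.1, so the days overlapped. On the second component, with 21.5%, all 3 day 5 libraries scored from 7.4 to 22.3. Day 10 replicates 1 and 2 scored -25.8 and -42.5 there, and day 10 replicate 3 scored 24.7, beyond the day 5 libraries. Neither of these axes alone separated the days. Because of this, the counts of genes called, the interaction and the changes of the named genes are given also with these end libraries left out.

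**Figure D1:**
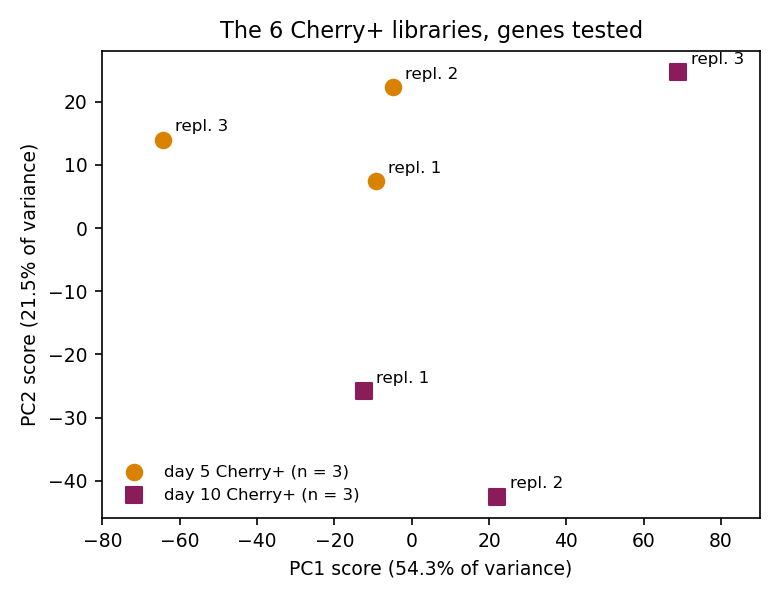
Scores of the 6 Cherry+ libraries on the first (horizontal) and second (vertical) principal component of the genes tested, in log2 units, with 1 point per library coloured by day. Day 5 replicate 3 and day 10 replicate 3 lie at the ends of the first component, at -64.4 and 68.9, and the remaining 4 libraries separate by day on the second.

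The end libraries also differed in how near they stood to unlabelled lung cells. The mean root mean square difference from the 3 Cherry- libraries of the same day was 1.12, 1.15 and 0.979 for day 5 Cherry+ replicates 1 to 3. For day 10 Cherry+ replicates 1 to 3 it was 0.99, 1.06 and 1.32. Day 5 replicate 3 was thus the labelled library nearest to the unlabelled cells and day 10 replicate 3 the farthest, while the ranges of the days overlapped.

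By day 10, 214 genes had risen and 481 had fallen in Cherry+ cells in limma at an adjusted p under 0.05. These are 1.35% and 3.04% of the genes tested, together 695 genes or 4.39%. Each identifier is counted as a gene, and some of them are not separate measurements. Relative to their means, uc008anr.1 and uc008aod.1 had the same values in every library, as did uc008snx.1 and uc029vfg.1, all among the falls. The fit used all 4 groups, with the Cherry- libraries entering only the estimate of each gene's spread. Rises had a median of 0.74 log2 units, a fold of 1.67, and lay between 0.35 and 3.40. Falls had a median of -1.41, a fold of 2.66, and lay between -0.42 and -2.96. There were 386 falls and 61 rises of at least 1 log2 unit among the genes called. The median change of all genes tested was -0.02, and the median standard error 0.22. Before adjustment 3317 genes, 20.9% of those tested, had a p under 0.05. A limma fit confined to the 6 Cherry+ libraries called 0 genes, with a smallest adjusted p of 0.198 and 2285 genes at a p under 0.05 before adjustment. All 214 rises and all 481 falls were among those 2285. That fit has the same Cherry+ values and the same changes, so this is no independent check of the calls.

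The labelled libraries varied more than the unlabelled ones that share the estimate of the spread. The median SD of a gene within a day, pooled over the days, was 0.28 in Cherry+ and 0.183 in Cherry- libraries. The Cherry+ SD was the larger for 66.6% of the genes tested and for 79.7% of the 695 genes called. With weights that let the labels differ in spread, 28 genes rose and 132 fell in limma, and all 160 of them were among the 695.

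**Figure D2:**
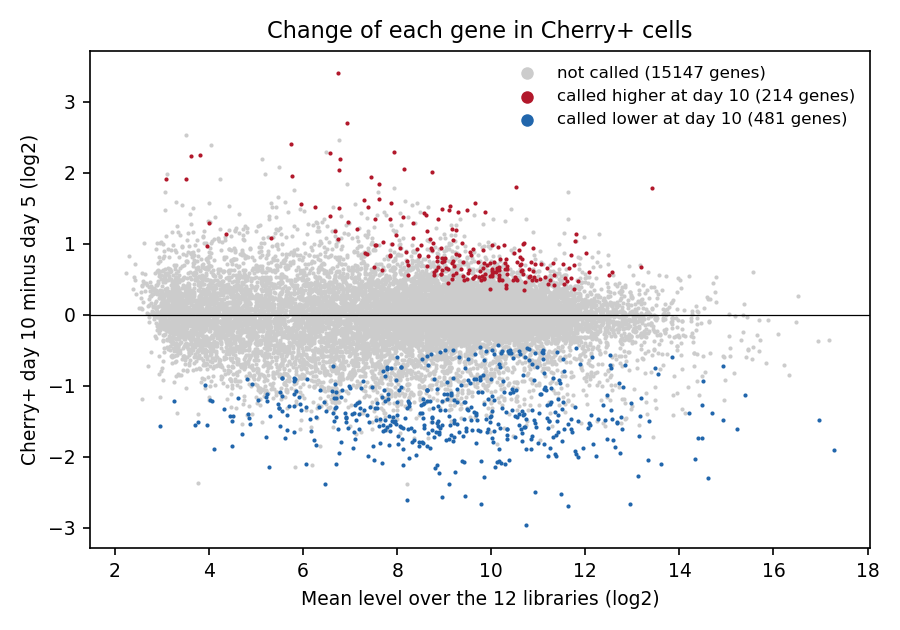
Each point is 1 of 15842 genes, with its mean level over the 12 libraries on the horizontal axis and its Cherry+ change (day 10 minus day 5) on the vertical axis, both in log2 units. The 481 genes called lower reach -2.96 and are spread over nearly the whole range of levels, while most of the 214 genes called higher lie between 0 and 1 on the vertical axis.

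The largest rise among genes that met the naming rule was that of uc008ppl.2. It stood at 4.44, 5.28 and 4.47 in the day 5 Cherry+ libraries and at 9.09, 8.99 and 6.31 in the day 10 Cherry+ libraries. All 3 day 10 values lay above all 3 day 5 values, but day 10 replicate 3 was far below the other 2. The change was 3.40 ± 0.64 (SE), a fold of 10.5, with a limma adjusted p of 0.023. The unlabelled cells stood between these group means at both days, at 7.0 ± 0.34 and 7.13 ± 0.67 (SD, n = 3). The labelled mean was 2.27 log2 units below the unlabelled mean at day 5 and 1.00 above it at day 10. The day 10 value rested on single libraries, since replicate 3 lay below all 3 day 10 Cherry- libraries. It was 1.91 with that replicate left out, 0.52 with replicate 1 left out and 0.57 with replicate 2 left out.

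The next rise, uc007dic.1, had the same order of levels. Its Cherry+ values were 5.76, 5.95 and 5.55 at day 5 and 7.32, 8.29 and 9.73 at day 10. The groups did not overlap, and day 10 replicate 3, the lowest of its group for uc008ppl.2, was here the highest. The change was 2.69 ± 0.48 (SE), a fold of 6.46, with a limma adjusted p of 0.0201. Unlabelled cells stood at 6.93 ± 0.26 and 6.62 ± 0.48 (SD, n = 3) at the 2 days, so that the labelled mean went from 1.17 log2 units below them to 1.83 above them, or to 1.19 above them with day 10 Cherry+ replicate 3 left out.

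The largest fall was that of uc009fuy.1. It stood at 10.60, 10.11 and 10.08 in day 5 Cherry+ cells and at 7.79, 7.25 and 6.87 in day 10 Cherry+ cells. The nearest values of the 2 days were 2.30 log2 units apart, the widest separation of any gene that was lower at day 10. The change was -2.96 ± 0.34 (SE), a fold of 7.79, with a limma adjusted p of 0.0159. Unlabelled cells held more of this transcript at both days, at 13.39 ± 0.48 and 12.01 ± 0.62 (SD, n = 3). Their own change of -1.38 ± 0.34 (SE) had the same sign but was not called (limma adjusted p = 0.132).

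The next fall, uc008hac.1, began from a different place. Its labelled level at day 5, with 12.09, 12.38 and 13.21 in the 3 libraries, was close to the unlabelled level of 12.45 ± 0.14 (SD, n = 3). At day 10 the labelled libraries held 10.93, 9.46 and 9.24 and the unlabelled ones 11.69 ± 0.47 (SD, n = 3). The change in labelled cells was -2.69 ± 0.42 (SE), a fold of 6.43, with a limma adjusted p of 0.0159, and in unlabelled cells -0.76 (adjusted p = 0.756). All 4 named genes lost the call in the fit of the 6 Cherry+ libraries (adjusted p = 0.198 for each), with library quality weights (0.0671 to 0.0698) and when day 10 Cherry+ replicate 2 was left out (0.0914 to 0.111). Both rises also lost it when either replicate 1 (0.0557 and 0.0506) or replicate 3 (0.0647 and 0.0581) of day 5 Cherry+ was left out. With both end libraries left out the changes were 4.18 for uc008ppl.2, 1.95 for uc007dic.1, -2.84 for uc009fuy.1 and -2.04 for uc008hac.1, all still called. These libraries were chosen after seeing the data, so the kept calls are no independent check. Leaving them out removes the low day 10 value of uc008ppl.2 and the highest day 10 value of uc007dic.1. A lack of overlap between the days was a condition for naming these genes, so it is no further evidence for them.

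**Figure D3:**
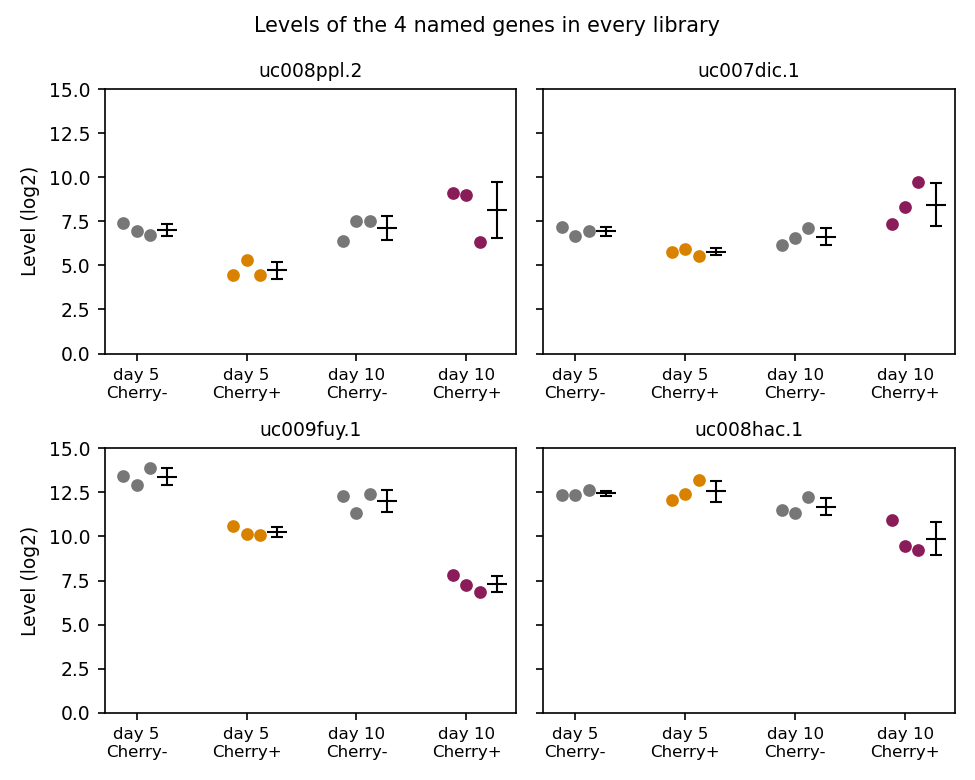
Levels (log2) of the 4 named genes, with 1 point per library in the 4 groups, Cherry- in grey, and a bar at the mean ± SD (n = 3). In both upper panels the day 10 Cherry+ libraries lie above day 5 Cherry+, and in both lower panels they lie below it, with unlabelled means changing less. For none of the 4 was the difference between the labelled and the unlabelled change called in limma (adjusted p from 0.196 to 0.294).

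The 481 genes that fell were unevenly spread over the libraries of each day. Their median level was 9.02, 8.95 and 9.60 in day 5 Cherry+ replicates 1 to 3 and 8.31, 7.57 and 7.24 in day 10 Cherry+ replicates 1 to 3. Day 5 replicate 3 was the highest of its group for 422 of the 481 genes, against 7160 of all 15842 genes tested. Day 10 replicate 3 was the lowest of its group for 358 of them, against 6597 of all. Day 10 replicate 1 was the highest for 423, against 5754 of all. Day 5 replicate 3 and day 10 replicate 3 are the libraries at the ends of the first principal component. Without both end libraries the median change of the 481 genes was -0.93 in place of -1.41, and 221 of them were still called lower, among 581 falls and 392 rises in that fit. The part of these libraries in the result beyond such values was not tested.

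At day 5 the labelled mean was below the unlabelled mean for 353 of these 481 genes and above it for 128, against 8308 and 7534 of all genes tested. It lay within 1 log2 unit of the unlabelled mean for 269 genes, at least 1 unit below it for 188 and at least 1 unit above it for 24. At day 10 the corresponding counts were 147, 334 and 0. Over all 15842 genes the share at least 1 unit below changed less, from 2187 at day 5 to 2501 at day 10. The fall had a similar median in the 3 day 5 classes, -1.34 for genes within 1 unit, -1.44 for those below and -1.50 for those above. These classes share the Cherry+ libraries with the day contrast and are given as a description. In unlabelled cells the median level of the 481 genes lay between 9.87 and 10.24 in all 6 libraries.

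The 214 genes that rose were spread more evenly. Their median level was 9.26, 9.40 and 9.09 in the day 5 and 9.97, 10.17 and 10.17 in the day 10 Cherry+ libraries. In day 10 replicate 3 the value was the highest of its group for 111 genes and the lowest for 59, against 6646 and 6597 of all 15842. Among the rises this library thus leaned to the high side, though less strongly than it lay low among the falls. In day 10 replicate 1 the value was the lowest of its group for 137, against 5751 of all. In day 5 replicate 2 it was the highest for 115, against 4165 of all. Most of the rises lay close to the unlabelled level, as did most genes tested. At day 5, 180 of the 214 lay within 1 log2 unit of it, against 12466 of all 15842. At day 10, 156 did, against 12301 of all. The number at least 1 unit above unlabelled cells was 19 at day 5 and 53 at day 10, against 1189 and 1040 of all.

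**Figure D4:**
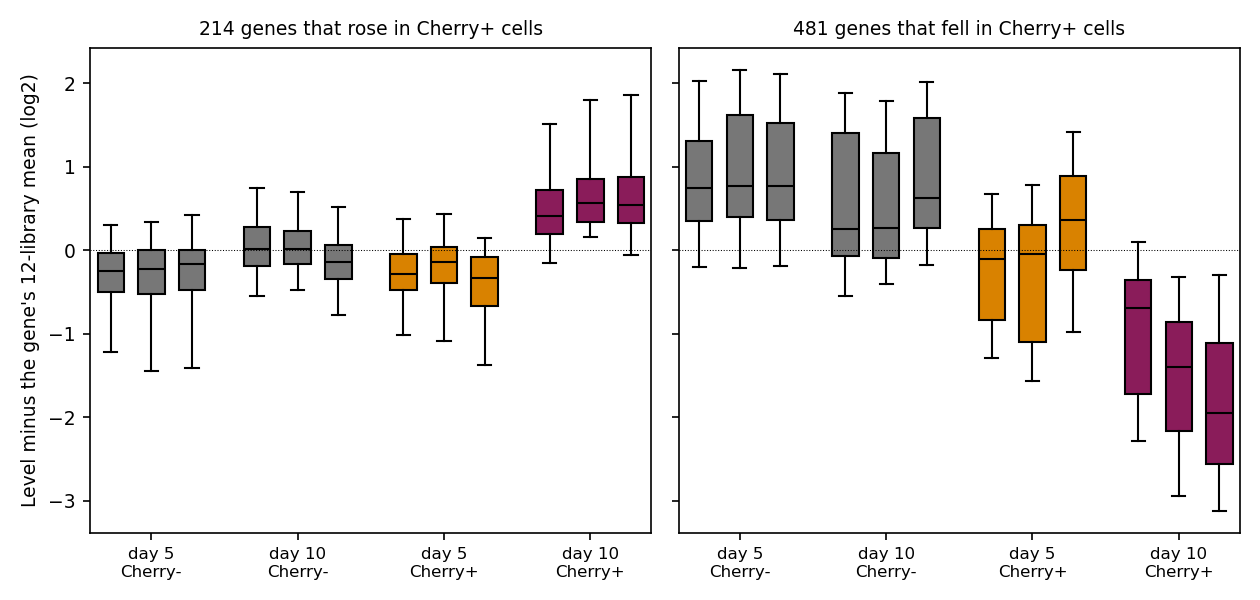
For the 214 genes that rose (left) and the 481 that fell (right), boxes show the quartiles, and whiskers the 5th to 95th percentile, of each gene's level minus its mean over the 12 libraries (log2), with 1 box per library in the order of replicates. Day 10 Cherry+ boxes stand apart because the genes were chosen for that. Among the falls, day 5 replicate 3 is the highest of its group and day 10 replicate 3 the lowest.

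The share of genes called lower was largest among abundant genes. Of the 2157 genes with a mean level over 11, 108 fell (5.01%) and 27 rose (1.25%). Under the 3 other scalings run, 4.87% to 5.10% of this class fell. Its rises depended on the scaling, with 22 after median ratios, 46 after cyclic loess and 59 after quantile normalisation. Between 8 and 11, 229 of 7362 genes fell and 144 rose. Between 5 and 8, 123 of 3844 fell and 36 rose, and under 5, 21 of 2479 fell and 7 rose. The standard error of a change was larger at low levels, with a median of 0.35 under 5 and 0.15 over 11, so fewer calls can be made there. Among the 100 most abundant genes 14 fell and 0 rose in limma. By the mean alone 79 of these 100 were lower at day 10, but after quantile normalisation or cyclic loess 54 were lower and 46 higher, so this balance depended on the scaling.

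The median level of each class was also compared between the days, with 3 libraries against 3, where no exact permutation test can give a p under 0.1. The median level of genes over 11 was 11.82, 11.82 and 11.85 in the day 5 and 11.78, 11.74 and 11.77 in the day 10 Cherry+ libraries. All 3 day 10 values were lower, by a mean of 0.06, which gives an exact two-sided permutation p of 0.1, the smallest that 3 libraries against 3 allow, or 0.4 after Benjamini-Hochberg adjustment over the 4 classes. In the class from 5 to 8 the values were 6.64, 6.57 and 6.6 at day 5 and 6.66, 6.62 and 6.25 at day 10 (exact permutation p = 0.9). Day 10 replicate 3 alone was low there. In the class under 5 it was again the lowest, at 3.25 against 3.52 to 3.85 in the other 5 libraries (exact permutation p = 1).

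Clear separation between the days was rare and did not need the model of the spread to be seen. The 3 day 10 Cherry+ libraries all lay below the 3 day 5 Cherry+ libraries for 1921 genes (12.1%) and all above them for 1465 (9.25%). A lack of overlap was also common in Cherry- cells. It held there for 2203 genes in the direction of the Cherry+ change and for 1094 in the opposite direction. With at least 1 log2 unit between the nearest Cherry+ libraries of the days, 30 genes were lower (0.189%) and 12 were higher (0.0757%) at day 10. The 30 lower genes had a median change of -1.87 and the 12 higher genes one of 2.07. All 12 of the latter and 29 of the former were among the 695 calls. Of the 30, 11 had a mean level between 5 and 8 and 10 between 8 and 11. Of the 12, 10 had a mean level between 5 and 8. In unlabelled cells over the same days the changes of these genes had medians of -0.64 and 0.95.

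The direct count gave another balance in unlabelled cells, where rises led. By the same measure, 84 genes were at least 1 log2 unit higher (0.53%) and 1 was lower (0.00631%) in all day 10 than in all day 5 Cherry- libraries. In limma, 58 genes rose in Cherry- cells, 0.366% of those tested, and 0 fell, with 1211 genes at a p under 0.05 before adjustment. Of those 58, 5 also rose in Cherry+ cells, which is 8.62% of the unlabelled and 2.34% of the labelled rises. The number of unlabelled calls rested on single libraries and on the model of the spread. The lack of falls depended on that model, while at most 2 genes fell with any 1 library left out. With day 10 Cherry- replicate 1 left out 1 gene was called, and likewise with replicate 2 left out. With day 5 Cherry- libraries left out, 21 genes were called in the absence of replicate 2 and 7 in that of replicate 3. With day 10 Cherry- replicate 3 left out there were 124, with day 5 Cherry+ replicate 3 left out 245, and with day 10 Cherry+ replicate 3 left out 108. When libraries were weighted by quality, 1123 rose and 429 fell. There were 267 calls with weights by Cherry label (260 higher and 7 lower) and 321 in a fit confined to the 6 Cherry- libraries (304 and 17).

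The change was smaller in size in unlabelled than in labelled cells for all 481 of the falls and for 199 of the 214 rises, as it was for 62.6% of all genes tested. The 481 falls had a median change of -0.25 in Cherry- cells, with 383 below 0 and 98 above, and 0 of them were called there. The 214 rises had a median change of 0.15, with 172 above 0 and 42 below, and 5 were called higher. The signs of the labelled and the unlabelled change were alike for 79.6% of the falls, 80.4% of the rises and 60.5% of all genes tested. The contrasts share no library, but at day 5 the same-numbered Cherry+ and Cherry- libraries deviated together from their group means, at correlations across genes of 0.254, 0.161 and 0.228. At day 10 these were -0.142, 0.572 and 0.107. The part of such shared deviations in the like signs was not tested. Genes chosen for a large change in one contrast tend to show a smaller one in another, so the smaller size in unlabelled cells is a description.

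An interaction term asked, gene by gene, whether the change differed between labelled and unlabelled cells, and 0 of 15842 genes passed in limma, the 695 included. The smallest adjusted p was 0.192, the median standard error 0.31 log2 units, and 1613 genes had a p under 0.05 before adjustment. This fit did not pair the Cherry+ and Cherry- libraries whose names share a letter. With a block on that letter 0 genes passed in limma, at a smallest adjusted p of 0.0752. For the named genes the labelled change minus the unlabelled change was 3.27 ± 0.90 for uc008ppl.2, 3.00 ± 0.68 for uc007dic.1, -1.58 ± 0.47 for uc009fuy.1 and -1.93 ± 0.59 for uc008hac.1 (SE), with adjusted p from 0.196 to 0.294. The count rested on single libraries. Leaving out replicate 3 of day 5 Cherry+ gave 107 genes. Leaving out replicate 1 of day 10 Cherry+ gave 161, and leaving out replicate 3 of that group gave 11. With both end libraries left out it was 716, of which 128 had the more positive and 588 the more negative change in labelled cells.

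Which genes were called in labelled cells also rested on single libraries. Leaving out day 10 Cherry+ replicate 2 left 0 genes called in limma, with 2482 at a p under 0.05 before adjustment. With day 5 Cherry+ replicate 3 left out, 98 genes were called, 87 of them among the 695. Without day 5 replicate 1 the numbers were 207 and 196, and without day 5 replicate 2 they were 464 and 400. Leaving out day 10 replicate 1, whose level was the highest of its group for most falls, gave 1655 genes, which included 665 of the 695. Leaving out day 10 replicate 3 ended the excess of falls, with 197 genes higher and 198 lower, 267 of them among the 695. Without both end libraries 973 genes were called, 336 of them among the 695. Leaving out a Cherry- library, which bears only on the spread, gave between 320 and 524 genes. Falls outnumbered rises in each of these fits that made calls, though by only 1 gene without day 10 replicate 3.

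**Figure D5:**
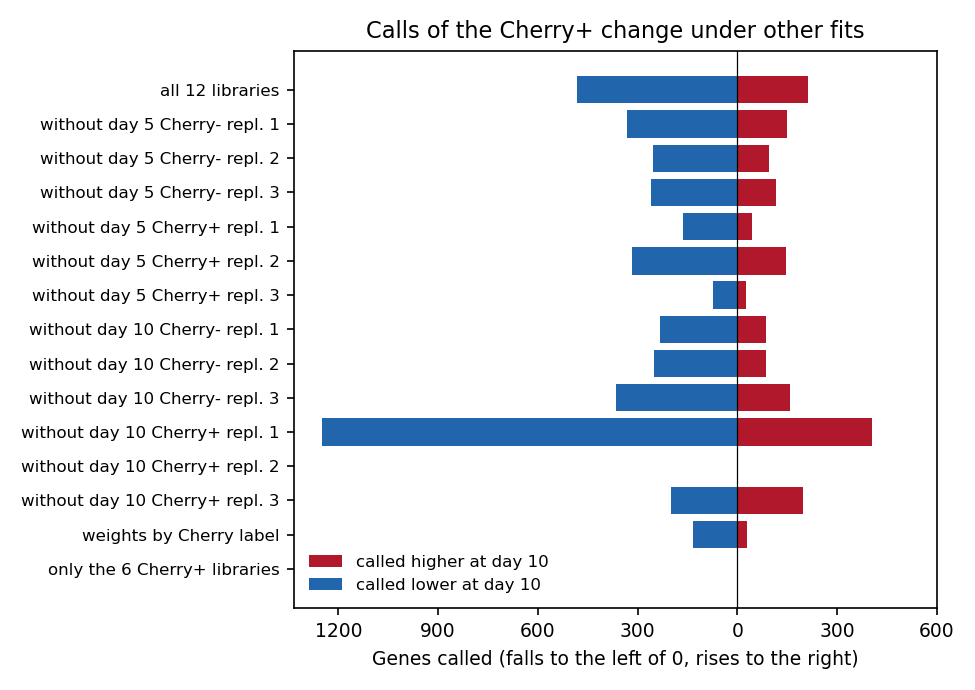
Number of genes called in the day 10 against day 5 contrast of Cherry+ cells when each library is left out, when the labels may differ in spread, and when only the 6 Cherry+ libraries are fitted, with falls drawn to the left of 0 and rises to the right. The count is 0 when day 10 Cherry+ replicate 2 is left out and 1655 when replicate 1 of that group is left out.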

How the data were processed

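Expression was measured by RNA sequencing in 12 libraries, of which the 6 Cherry+ libraries are compared here. The authors deposited 1 table of log2 values for 32958 genes. Per the submitters' processing notes, the mm10 build, DESeq2 1.12.4, Bowtie2 and RSEM 1.2.29 were used, with no role stated. The transform behind the values was not stated in those notes either. If it shrinks low values, changes of low genes are understated, which was not tested. Rows at 0 in every library (7764) were dropped, and no other row held a 0. Over the genes tested, the library medians ran from 8.70 to 8.82.

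The main test was limma 3.58.1 in R 4.3.3 with 1 mean per group, 8 residual degrees of freedom, a mean-dependent prior, two-sided p-values and Benjamini-Hochberg adjustment over all 15842 genes. Procedures were tested on simulated data with independent noise and the same spread for a gene in all libraries. That test cannot show how the larger spread of the Cherry+ libraries affects the calls. Named genes were the 2 largest rises and 2 largest falls with an adjusted p under 0.05, a higher group mean of 5.64 or more (50 when not in logs) and no overlap between the days. This is the form of the rule for identifiers without symbols, so the marker and pathway lists prepared could not be applied. Level classes were bounded at 5, 8 and 11. The samples compared, the lists and the tests were chosen with earlier results of these data known. The separation by 1 log2 unit, the classes against unlabelled cells, the fit without both end libraries and the letter block were chosen after seeing the data. The other alternatives were scaling, filter, prior, weights, the replicate block and leaving out each library. Figures were drawn with matplotlib 3.10.9.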

Additional observations from a re-analysis of the deposited data

How the results depend on the processing

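For the Cherry+ change, 695 genes as reported, dropping the filter gave 276, weights by Cherry label 160, the replicate block 196, library quality weights 0 and the fit of only the 6 libraries compared 0. Leaving out 1 library gave 0 to 1655. For the Cherry- change, 58 as reported, the same settings gave 31, 267, 51, 1552 and 321, quantile normalisation 110, cyclic loess 95, leaving out both end libraries 489 and leaving out 1 library 1 to 245. Estimation of the quality weights ended short of convergence. For the difference of the changes, 0 as reported, library quality weights gave 18, leaving out both end libraries 716 and leaving out 1 library 0 to 161. It stayed at 0 with a block on the letter that the names of Cherry- and Cherry+ libraries share. With that block the smallest limma adjusted p was 0.0752, against 0.192 as reported. The cause of these shifts was not tested. The change of the median level over 11 was -0.0646 as deposited and -0.0106 after quantile normalisation. No letter in the library names is shared across the days, so nothing in the names pairs them by replicate number. The deviations of same-numbered Cherry+ libraries correlated at -0.391, -0.194 and -0.443. Without differently numbered pairs beside them, these values cannot decide whether the days were paired. The 4 named genes kept their direction in 24 alternatives each, in which 80 calls were kept and 16 lost, at limma adjusted p from 0.00163 to 0.198. Leaving out or weighting libraries could not have reversed the direction, because a lack of overlap between the days was a condition for naming. Genes 1 log2 unit apart numbered 12 to 16 higher and 20 to 31 lower over scaling and filter. Depth is unknown.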
